A study of Mus musculus with 12 samples.

Results

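The 8 imprinted genes Igf2, H19, Nnat, Peg3, Dlk1, Plagl1, Grb10 and Mest were followed through an RNA immunoprecipitation (RIP) experiment on the m6A readers Ythdf1 and Ythdf2. They were taken by name, and each of the 8 was found by its symbol among the 52550 genes of the deposited tables. RNA was recovered with an anti-Ythdf1 or an anti-Ythdf2 antibody from C57BL/6 wild-type mice, and input RNA that saw no antibody was sequenced beside it. Cortex was taken at E12.5 and retina at P0 (the day of birth), and all groups share the strain and the genotype. There were 6 groups of 2 libraries, 12 in all: input, Ythdf1 IP and Ythdf2 IP in each tissue. The labels do not say whether the replicates came from separate animals, so p-values measure the spread between these libraries, which may be technical. No library with an unrelated antibody was among the samples, and the input was the only background. Tissue and age differ together and cannot be told apart.

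Imprinted genes are read from 1 parental copy only, and many of them set the rate of growth before birth. Igf2 encodes a growth factor of the insulin family that is read from the paternal copy, and H19 is a long noncoding RNA from the neighbouring locus that is read from the maternal copy. Grb10 is an adaptor that restrains signalling through the receptors for insulin and IGF, and Plagl1 is a zinc finger transcription factor of the imprinted gene network. Dlk1 is a transmembrane relative of the Notch ligands, Peg3 a large zinc finger protein, Mest a protein of the hydrolase fold and Nnat (neuronatin) a small membrane protein of the endoplasmic reticulum. Ythdf1 and Ythdf2 recognise RNA that carries the methylated base m6A (N6-methyladenosine). Ythdf1 is best known for promoting translation of its targets and Ythdf2 for promoting their decay.

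The methyl mark is placed within a short sequence context of which GGACT is a common form, so the longest annotated transcript of each member (GENCODE M21, GRCm38) was searched for these letters on the sense strand. All 8 transcripts held at least 1. Among 14169 protein-coding genes tested, 92.9% held at least 1, with a median of 1.05 per kb. H19 had 6 in 2286 bases, or 2.62 per kb, and Igf2 had 2 in 4722 bases, or 0.42 per kb, both in the 3′ UTR. Nnat had 1 in 1213 bases and Mest 1 in 2665, while Peg3 had 9, Grb10 7, Plagl1 5 and Dlk1 3. Of protein-coding transcripts within 20% of the same length, 99.0% held at least 1 for the length of Igf2, 90.9% for that of H19, 79.3% for that of Nnat and 93.6% for that of Mest. The windows below belong to Igf2, H19, Nnat and Mest, the 4 members on which the comparison of the antibodies turned. Each has GGACT in capitals and shows the copy nearest the stop codon, or the first copy in H19. They lie at chr7:142651476-142651500 on the minus strand (Igf2, exon 4, 3′ UTR), chr7:142578001-142578025 on the minus strand (H19, exon 1), chr2:157560115-157560139 on the plus strand (Nnat, exon 1, 5′ UTR) and chr6:30747555-30747579 on the plus strand (Mest, exon 13, 3′ UTR).
Igf2: acggtgcctaGGACTgcggcgggga
H19: gaatgttgaaGGACTgaggggctag
Nnat: gcccagcagcGGACTccgagaccag
Mest: cagtttctgtGGACTttattaaaat
A match is a stretch of letters and not a measured methylated site. The Mest window lies in the 912 bases of exon that Mest shares with Copg2 on the other strand.

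Libraries held 19530226 to 40515980 counts, and protein-coding genes took 8.37% to 41.1% of them outside the library labelled cortex input replicate 1. That library goes against its label. Camk2a, which marks mature excitatory neurons, reached 8967 counts there against 237 in cortex input replicate 2, and there were 145 counts of the progenitor gene Nes against 19126. Protein-coding genes took 4.65% of its counts, and over these genes its Spearman correlation with its replicate was 0.585, against 0.908 to 0.978 within the other groups. Counts of genes that passed are given below for all 12 libraries and, in most comparisons, for the 11 left without it. In the fit of 11, cortex input is 1 library that is assumed to vary like the other groups. Summed cortex markers ran from 313 to 451 normalised CPM in the other cortex libraries and from 52.6 to 95.4 in retina, and summed retina markers from 251 to 343 in retina and from 3.79 to 18.8 in cortex.

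Per length, the order of the members differed between the input RNAs. In cortex input replicate 2, Igf2 led with 97.7 FPKM, before Mest with 81.2, Grb10 with 37.0, H19 with 21.4, Plagl1 with 18.4, Peg3 with 12.3, Nnat with 7.60 and Dlk1 with 2.52. In the retina inputs Nnat led with 16.5 and 18.2 FPKM, followed by H19 with 13.9 and 12.5, and Dlk1 was last. The library labelled cortex input replicate 1 held 2.75 FPKM of Nnat and less than 1 of each other member. Counts scaled to library size by the trimmed mean of M values are given below as normalised CPM, replicate 1 first.

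**Figure D1:**
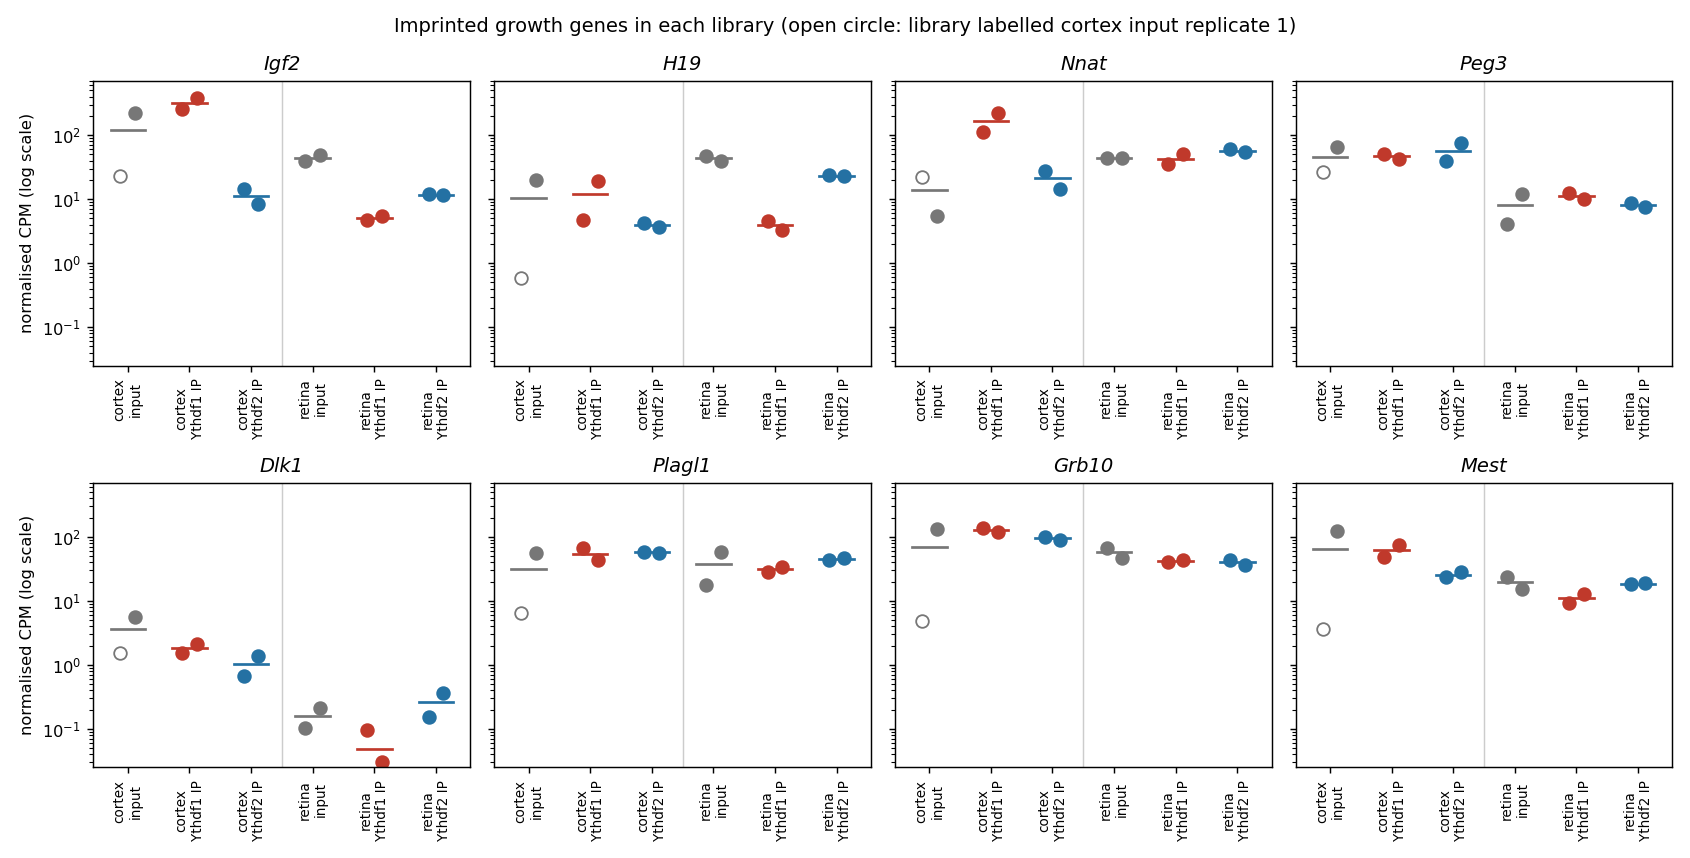
Normalised CPM (log axis) of the 8 members in the 12 libraries, cortex left and retina right of the grey line. Points are libraries and bars are means of 2. The open circle is the library labelled cortex input replicate 1, and the retina Ythdf1 IP with 0 counts of Dlk1 is drawn at the bottom of the axis. Igf2 stands at 257 and 384 in the cortex Ythdf1 IPs and at 14.2 and 8.38 in the cortex Ythdf2 IPs.

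Between the inputs, Peg3 and Dlk1 were lower in retina than in cortex. Of the 8 members, 2 passed the test downward and 0 upward, where 4.01% of all genes tested passed downward, 3.51% upward and 7.52% in either direction (edgeR quasi-likelihood test, Benjamini-Hochberg adjusted p under 0.05 over 18458 genes). Peg3 stood at 26.4 and 64.6 CPM in the cortex inputs and at 4.10 and 12.2 in the retina inputs (log2 -2.48, SE 0.63, adjusted p 0.0377). The groups did not overlap in normalised CPM. In FPKM they did, with 0.454 and 12.3 in the cortex inputs and 0.212 and 0.687 in the retina inputs. Dlk1 had 13 and 506 counts in the cortex inputs and only 3 and 6 in the retina inputs (adjusted p 0.0261). These are at or near the floor of 3, so the size is given as a ratio of counts. Against cortex input replicate 2 alone, the retina inputs held 0.0281 times as much Dlk1 per scaled count, with an exact 95% interval of 0.0128 to 0.0537 for counting error only. Peg3 passed in 6 of 21 alternatives (adjusted p 0.000383 to 0.762) and Dlk1 in 14 (7.55e-05 to 0.762). When 1 library was left out, the Peg3 call was lost unless that library was a cortex input. The Dlk1 call was lost without either retina input and without either cortex Ythdf1 IP. Without the library labelled cortex input replicate 1, 5 members were lower (Peg3, Dlk1, Igf2 at log2 -2.34, Grb10 at -1.23 and Mest at -2.71) and Nnat was higher at 2.98, against 11.1% lower and 8.82% higher of all genes. In tissue RNA, fewer cells of a type and less RNA per cell cannot be told apart.

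Igf2 stood 28.3-fold higher on average in the cortex Ythdf1 IPs than in the cortex Ythdf2 IPs, and 2.30-fold lower in the retina Ythdf1 IPs than in the retina Ythdf2 IPs. The gene lies at 142650766 to 142666816 on chromosome 7, minus strand (all positions are on GRCm38). On the deposited FPKM, which are not TMM-scaled, the cortex means were 51.8 and 4.29, a 12.1-fold difference. In the cortex, the Ythdf1 libraries held 257 and 384 CPM and the Ythdf2 libraries 14.2 and 8.38, a log2 difference of 4.83 (SE 0.92). Cortex input replicate 2 held 220.1 CPM, below both Ythdf1 IPs and far above both Ythdf2 IPs, whereas the library labelled cortex input replicate 1 held 23.4. In the retina the order of the antibodies was the other way around. The retina inputs held 39.7 and 48.9 CPM, the Ythdf2 IPs 12.1 and 11.4, and the Ythdf1 IPs 4.76 and 5.48, and none of these groups overlapped. Tested directly, the retina difference of Igf2 between the antibodies did not pass over all 12 libraries. It passed in 2 of 22 alternatives, and the log2 ran from -1.41 to -0.69 over them.

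The Igf2 difference between the cortex IPs did not pass over all 12 libraries (adjusted p 0.282), although it was 14th of 18458 genes by p. In the fit of 11 libraries it was the 1st of 20278 genes, with a log2 difference of 4.81 (SE 0.41, adjusted p 5.94e-05). Over all 22 alternative analyses the adjusted p ran from 9.32e-08 to 1, and the log2 difference from 3.32 to 5.24 (edgeR, DESeq2 and limma). In the retina, the fall of Igf2 in the Ythdf1 IP passed in the full fit, at a log2 of -3.11 (SE 0.85, adjusted p 0.0439), and its size was the same without that library. The call is not firm: it held in 7 of 22 alternatives (adjusted p 3.11e-05 to 1). When 1 library was left out at a time it held without either cortex input and was lost without any 1 of the IPs or retina inputs, while the log2 value stayed between -3.32 and -2.95. The retina Ythdf2 IP gave -1.91 (SE 0.81, adjusted p 0.268) and the cortex Ythdf2 IP -3.43 (SE 0.86, adjusted p 0.0907). Both passed without the library labelled cortex input replicate 1, at -1.91 and -4.29. The cortex Ythdf1 IP gave 1.39 (SE 0.80) over both inputs and 0.52 (SE 0.43) over cortex input replicate 2, and neither passed. The antisense gene Igf2os, which shares 98 exon bases with Igf2, held 184 counts in all libraries together, against 197 to 19869 counts of Igf2 in each cortex library and 145 to 1389 in each retina library. Summed levels of 9 endothelial markers ran opposite to Igf2 in the retina. They stood at 39.1 and 39.4 CPM in the inputs, 84.0 and 85.2 in the Ythdf2 IPs and 159 and 156 in the Ythdf1 IPs, and their part in the result was not tested.

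In normalised CPM, H19 was highest in the retina inputs, and its mean in the retina Ythdf2 IPs was 5.90 times that in the retina Ythdf1 IPs. In FPKM, cortex input replicate 2 was highest, with 21.4 against 13.9 and 12.5 in the retina inputs. The gene lies at 142575529 to 142578143 on chromosome 7, minus strand. The retina inputs held 47.6 and 39.5 CPM, the Ythdf2 IPs 24.1 and 22.6, and the Ythdf1 IPs 4.60 and 3.33, with no overlap between groups. In the cortex, replicates of the Ythdf1 IP and of the input lay far apart. Ythdf1 libraries of the cortex held 4.73 and 19.3 CPM, those of Ythdf2 4.25 and 3.70, and the inputs 0.593 and 19.96. In FPKM the cortex IPs of H19 overlapped, with 2.37 and 6.07 for Ythdf1 and 3.08 and 4.57 for Ythdf2. Against input, the retina Ythdf1 IP gave a log2 of -3.46 (SE 1.09, adjusted p 0.0695), and the antibodies differed by -2.56 in the retina (SE 1.05, adjusted p 0.367). Both passed without the library labelled cortex input replicate 1, at -3.45 (SE 0.51) and -2.55 (SE 0.49). They also passed with the 6 retina libraries fitted alone, at -3.57 (SE 0.31) and -2.69 (SE 0.30).

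Nnat was highest in the cortex Ythdf1 IPs, with 7.88 times the mean of the cortex Ythdf2 IPs in normalised CPM and 3.31 times in FPKM. The gene lies at 157560078 to 157562522 on chromosome 2, plus strand, within the span of Blcap on the other strand (2711 counts in all), with which it shares 0 exon bases. The cortex Ythdf1 IPs held 113 and 219 CPM, the cortex Ythdf2 IPs 27.7 and 14.5, and the cortex inputs 22.3 and 5.48. All 6 retina libraries lay between 35.2 and 60.1 CPM, so that both cortex Ythdf1 IPs stood above each of the other libraries. The antibodies differed by a log2 of 2.98 in the cortex (SE 0.70, adjusted p 0.683) and by -0.41 in the retina (SE 0.65). The cortex Ythdf1 IP differed from input by 3.59 (SE 0.72, adjusted p 0.156). In the fit of 11 libraries the cortex differences passed, at 2.96 (SE 0.41) between antibodies and 4.89 (SE 0.62) over input. In both retina IPs the change from input was smaller than its SE, -0.04 (SE 0.65) for Ythdf1 and 0.37 (SE 0.65) for Ythdf2.

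Mest had a mean 2.41 times higher in the Ythdf1 IPs than in the Ythdf2 IPs of the cortex, and 1.70 times lower in the retina. It lies at 30723547 to 30748465 on chromosome 6, plus strand, and its last exon is shared in part with Copg2 (4399 counts in all). Since the strand setting of the counting is not given in the sources used here, reads of that stretch cannot be assigned with certainty. The cortex Ythdf1 libraries held 48.0 and 74.96 CPM of Mest, the Ythdf2 libraries 23.3 and 27.8, and cortex input replicate 2 held 126. In the retina the inputs held 23.5 and 15.4 CPM, the Ythdf2 IPs 18.4 and 18.9, and the Ythdf1 IPs 9.27 and 12.6. The Ythdf1 IPs thus stood above the Ythdf2 IPs in the cortex and below them in the retina, without overlap in normalised CPM. In FPKM the cortex IPs overlapped, with 14.5 and 14.3 for Ythdf1 and 10.2 and 20.8 for Ythdf2. Neither difference passed, at 1.27 (SE 0.99) in the cortex and -0.77 (SE 0.99) in the retina. The cortex value was -0.13 with library totals and -0.02 on log2(FPKM + 1). Against cortex input replicate 2 alone, the cortex Ythdf2 IP was lower by a log2 of -2.30 (SE 0.39) and passed.

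For the other 4 members no difference between the antibodies passed. Grb10, the adaptor (11930508 to 12038683 on chromosome 11), held 137 and 120 CPM in the cortex Ythdf1 IPs and 100.1 and 89.2 in the cortex Ythdf2 IPs, and 36.7 to 43.6 in the 4 retina IPs. Plagl1, the transcription factor (13060504 to 13131694 on chromosome 10), held 43.1 to 65.9 CPM in the 4 cortex IPs and 27.7 to 46.2 in the 4 retina IPs. For Grb10 the antibodies differed by 0.44 (SE 0.95) in the cortex and 0.06 (SE 0.95) in the retina, and for Plagl1 by -0.06 (SE 0.80) and -0.53 (SE 0.80). Peg3, the zinc finger protein (6703892 to 6730431 on chromosome 7), held 39.8 to 74.4 CPM in the cortex IPs and 7.57 to 12.5 in the retina IPs, with antibody differences of -0.29 (SE 0.60) and 0.49 (SE 0.60). FPKM values are not TMM-scaled. With library totals, the median log2 of all genes between the cortex antibodies was -1.33, so lower with Ythdf1. How many of all genes lay apart in FPKM was not counted. In FPKM the cortex Ythdf2 IPs stood above the cortex Ythdf1 IPs without overlap for all 3, by 1.72 times for Grb10, 2.40 for Plagl1 and 3.12 for Peg3. None of these passed in the fit of 12 or of 11 libraries, but a p that misses the threshold does not show that the antibodies recover these RNAs alike. Dlk1 (109452823 to 109463336 on chromosome 12) had 62 and 39 counts in the cortex libraries of Ythdf1 and 35 and 147 in those of Ythdf2. In each retina IP it had 0 to 7 counts, at or near the floor of 3, and no fold is given there.

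**Figure D2:**
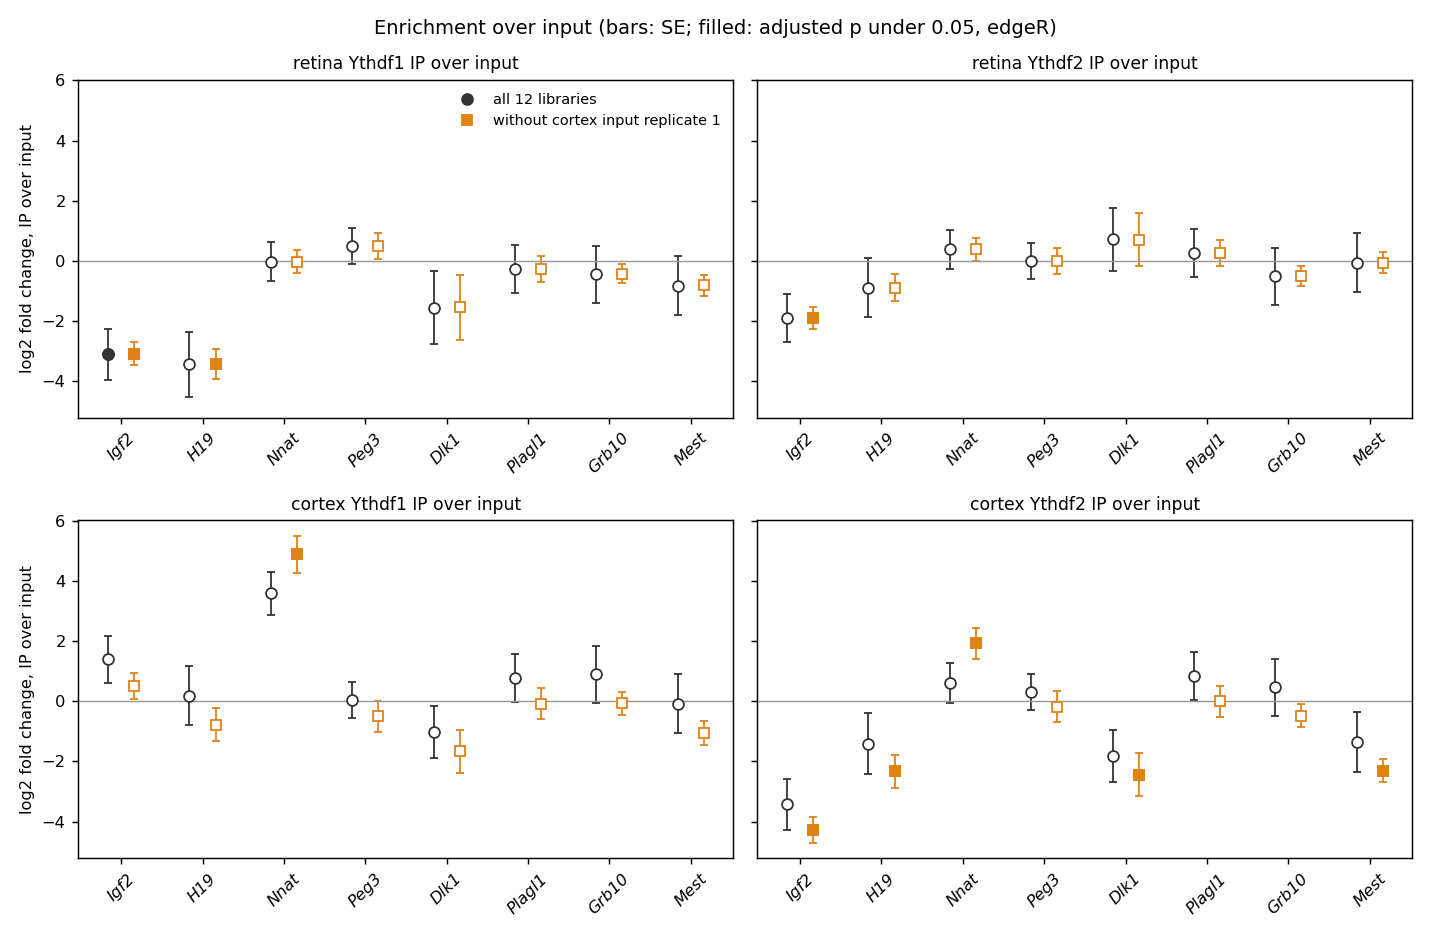
Log2 fold change of each member, IP over input, for the 4 pairs of antibody and tissue. Points are estimates from edgeR with all 12 libraries (circles) and without the library labelled cortex input replicate 1 (squares), bars are SE, and filled points passed at an adjusted p under 0.05. Igf2 in the retina Ythdf1 IP, at -3.11, is the filled circle.

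Recovery over input was compared for each antibody and tissue. In the retina Ythdf1 IP, 1 of 8 members (Igf2) was lower and 0 were higher, where 5.23% of all genes were lower, 3.57% higher and 8.80% passed in either direction. The median of the members was -0.64, against 0 for all genes tested. Left without that 1 library of cortex input, the fit had Igf2 and H19 lower (13.4% of all genes lower and 13.7% higher), and the 6 retina libraries fitted alone added Mest at -0.96 (SE 0.32), in a fit where 20.3% of all genes were lower. In the retina Ythdf2 IP, 0 members passed (2.04% of all genes, 1.76% lower and 0.282% higher, 1 member at an unadjusted p under 0.05, 0 by DESeq2), and Igf2 alone passed without that library (7.64% of all genes lower and 5.82% higher) and in the retina libraries fitted alone (10.7% lower). Over all 12 libraries, 3039 of 18458 genes had an unadjusted p under 0.05 in the retina Ythdf2 IP, and the members' median was -0.04.

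In the cortex, 0 members passed against input with either antibody, where 0.00542% of all genes passed for Ythdf1 and 0.0108% for Ythdf2. At an unadjusted p under 0.05 there was 1 member for each antibody, beside 2884 of all 18458 genes for Ythdf1 and 3562 for Ythdf2. DESeq2 called 1 member for each (7.30% of all genes for Ythdf1 and 12% for Ythdf2). Against cortex input replicate 2 alone, Nnat was higher in the Ythdf1 IP (1.55% of all genes higher and 2.17% lower). In the Ythdf2 IP, Nnat was higher at 1.93 (SE 0.52), and Igf2, H19, Dlk1 and Mest were lower (2.48% higher and 5% lower of all genes). H19 stood there at -2.33 (SE 0.54) and Dlk1 at -2.44 (SE 0.71). The median of the members was 0.48 for Ythdf1 and -0.51 for Ythdf2 with all libraries, and -0.28 and -1.39 without that library. Both antibodies of a tissue were compared with the same input libraries.

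**Figure D3:**
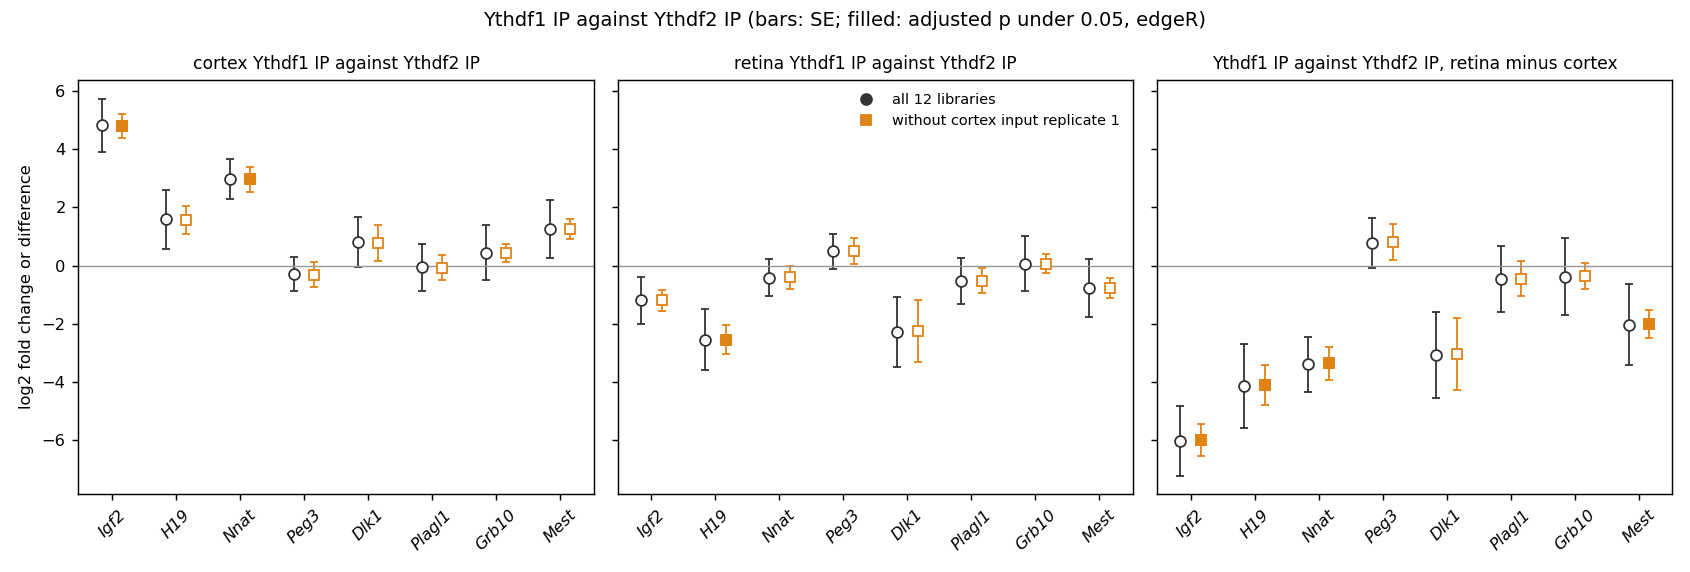
Log2 difference of the Ythdf1 IP from the Ythdf2 IP for each member in cortex (left) and retina (middle), and the retina difference minus the cortex difference (right). Circles are all 12 libraries, squares leave out the library labelled cortex input replicate 1, bars are SE, and filled points passed at an adjusted p under 0.05. Igf2 lies at 4.83 in cortex and below 0 in retina, so that its difference between tissues is -6.03.

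The estimate of the direct difference between the antibodies does not use the inputs, but the inputs enter the spread of the fit and so its p. In the cortex, 0 members passed over all 12 libraries, where 0% of all genes did; 739 genes in all and 2 members (Igf2 and Nnat) had an unadjusted p under 0.05, and DESeq2 called 2 members and 0.39% of all genes. In the fit of 11 libraries, Igf2 and Nnat were higher with Ythdf1, where 0.671% of all genes were higher and 0.0345% lower. The members' median was 1.04 with all libraries, against -0.06 for all genes, and 6 of 8 lay above 0. With library totals in place of TMM scaling, the median of all genes moved to -1.33 and that of the members to -0.39. In the retina, 0 members passed with all libraries (0% of all genes, 2211 genes and 1 member at an unadjusted p under 0.05, 0 members by DESeq2). H19 passed in the fit of 11 libraries (3.88% of all genes lower and 2.14% higher), and H19 and Igf2 in the retina libraries fitted alone (6.56% lower). The members' median was -0.65 in the retina, against 0.02 for all genes, and 2 of 8 lay above 0.

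**Figure D4:**
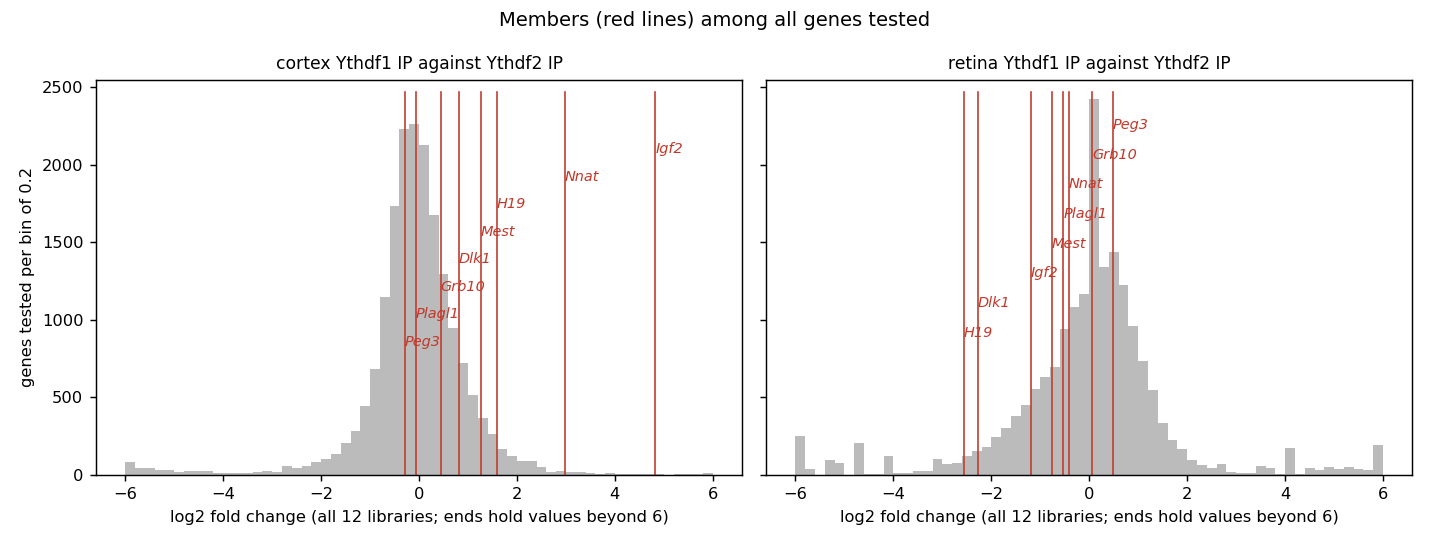
Histograms of the log2 difference between the Ythdf1 IP and the Ythdf2 IP over 18458 genes tested, in cortex (left) and retina (right), with the members as red lines. Igf2 at 4.83 and Nnat at 2.98 lie in the upper tail in cortex, and H19 at -2.56 in the lower part in retina.

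Whether the antibodies differed in another way in retina than in cortex was tested in 2 forms. Through the inputs, the Ythdf1 enrichment of the retina minus that of the cortex gave 0 members called over all 12 libraries (0.00542% of all genes). There were 3064 genes and 3 members at an unadjusted p under 0.05, and 2 members by DESeq2, which called 6.22% of all genes. Igf2 stood at -4.51 (SE 1.16, adjusted p 0.154), H19 at -3.64 (SE 1.44) and Nnat at -3.63 (SE 0.95). Igf2 and Nnat passed in the fit of 11 libraries (2.41% of all genes lower and 1.11% higher). The same difference for Ythdf2 gave 0 members over all 12 libraries (0.0325% of all genes, 2080 genes and 0 members at an unadjusted p under 0.05, 0 members by DESeq2). Directly between the antibodies, 0 members passed over all 12 libraries (0% of all genes). There were 1637 genes and 3 members at an unadjusted p under 0.05, and 2 members by DESeq2, which called 1.38% of all genes. Igf2 stood at -6.03 (adjusted p 0.297), H19 at -4.15 (SE 1.45), Nnat at -3.39 (SE 0.94) and Mest at -2.03 (SE 1.40). This comparison was added after the data were seen. In the fit of 11 libraries these 4 members passed downward, where 1.92% of all genes did and 0.597% passed upward, and Igf2 was the 2nd of 20278 genes by p.

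In normalised CPM, summed markers of mesenchyme and of erythroid cells were higher in the cortex Ythdf1 IPs than the Ythdf2 IPs, as Igf2 was. The 14 genes of meninges and mesenchyme, tissues in which Igf2 is known to be high, summed to 134 and 135 CPM in the cortex Ythdf1 IPs and to 59.4 and 104 in the cortex Ythdf2 IPs, 1.64 times as much on average. The 9 erythroid genes summed to 697 and 1587 CPM against 329 and 362. In the retina the erythroid genes summed to 0.404 to 1.30 CPM in all 6 libraries. The mesenchyme sum ran opposite to Igf2 there. It stood at 7.06 and 5.35 CPM in the retina inputs, 11.3 and 9.20 in the Ythdf2 IPs and 16.5 and 19.6 in the Ythdf1 IPs. Of the mesenchyme genes, Dcn, Lum and Postn had 0 counts in each retina library. Others were present: the retina Ythdf1 IPs held 152 and 194 counts of Pdgfra and 250 and 224 of Pdgfrb. Foxd1 was higher in the retina inputs, at 2.85 and 1.27 CPM, than in the cortex inputs, at 0.593 and 0.642. In the cortex the erythroid sum was 3.31 times as high on average with Ythdf1. Between the cortex antibodies, 0 of the 14 mesenchyme genes (median log2 0.45) and 0 of the 9 erythroid genes (1.59) passed over all 12 libraries. The share of all genes that passed there was 0%. The part of these cells in the result was not tested.

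**Figure D5:**
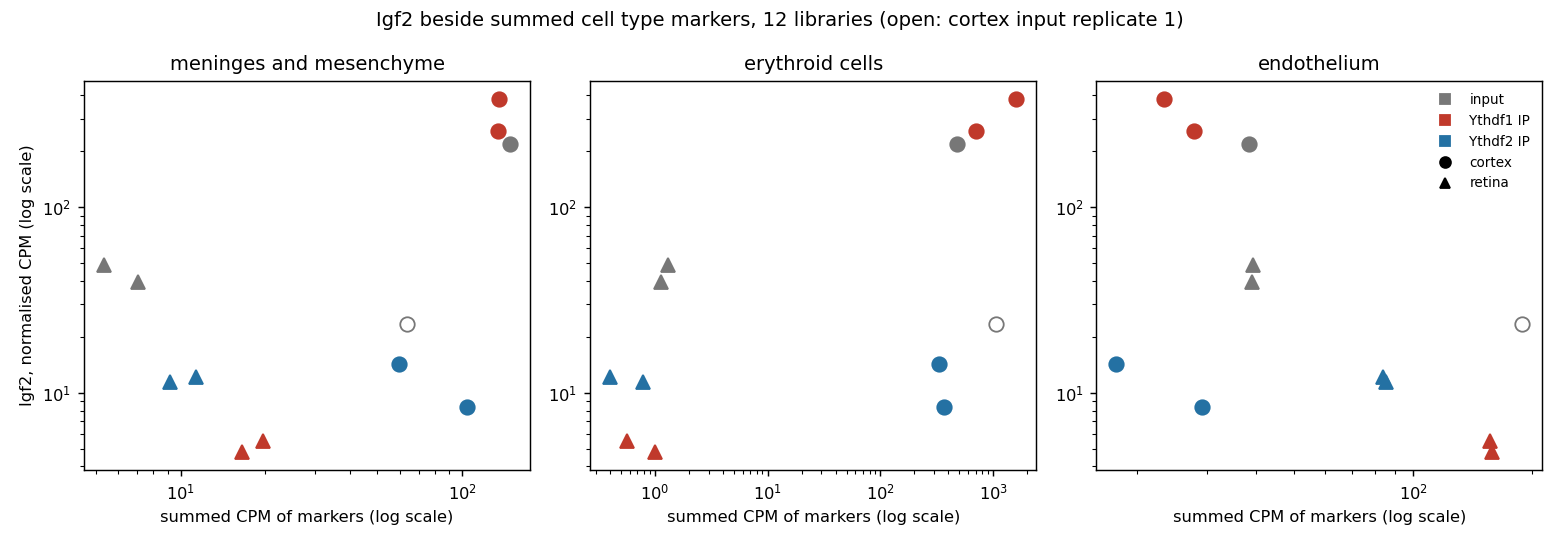
Normalised CPM of Igf2 (vertical, log axis) against the summed normalised CPM of markers of meninges and mesenchyme, of erythroid cells and of endothelium (horizontal, log axes) in 12 libraries. Circles are cortex and triangles retina, colours mark input and antibody, and the open circle is the library labelled cortex input replicate 1. The cortex Ythdf2 IPs, at 14.2 and 8.38 CPM of Igf2, lie below the cortex Ythdf1 IPs at marker sums of 59.4 and 104 against 134 and 135.

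The insulin receptor gene Insr and the Igf2 receptor gene Igf2r were higher in the retina Ythdf1 IP than in the input, where Igf2 was lower. Of 25 genes of the axis, a list that holds Igf2 and Grb10, 22 were tested. For Insr the retina inputs held 9.63 and 10.9 CPM, against 52.1 and 53.4 with anti-Ythdf1 (log2 2.36, SE 0.44, adjusted p 0.0159). Igf2r, which binds Igf2 and sends it for degradation and is itself imprinted, stood at 3.55 and 4.51 CPM against 24.2 and 22.2 (log2 2.52, SE 0.63, adjusted p 0.0317). Igf2 was the only gene of the axis that passed downward. That made 2 higher and 1 lower of 22, against 3.57% and 5.23% of all genes, with a median of 0.09 against 0. In the fit of 11 libraries there were 5 higher and 1 lower, among them Irs1, a docking protein of the receptors, at 2.51 and Igf1r, the receptor through which Igf2 signals, at 1.21. Summed endothelial markers were 4.01 times as high in the retina Ythdf1 IPs as in the inputs, and their part in these differences was not tested. In the retina Ythdf2 IP, in the cortex IPs against input, between the antibodies and in the differences between tissues, 0 genes of the axis passed over all 12 libraries. For comparisons with calls in the fit of 11, the shares of all genes are given above with the members. Whether the list differs from all genes there was not tested. The fit of 11 libraries had 4 higher and 1 lower for the retina Ythdf2 IP, 1 lower (Igf2) for the cortex Ythdf2 IP and 0 for the cortex Ythdf1 IP. It had 2 lower between the retina antibodies, 1 higher (Igf2) between the cortex antibodies, 2 higher and 1 lower for the Ythdf1 enrichment between tissues, 0 for that of Ythdf2 and 2 lower for the antibody difference between tissues. Between the inputs 3 genes of the axis, all binding proteins, were lower in the retina and 0 higher (4.01% and 3.51% of all genes), against 10 lower and 2 higher in the fit of 11 (11.1% and 8.82%). Igfbp3 stood at 5.46 and 1.88 CPM in the cortex inputs and at 0.139 and 0.106 in the retina inputs, and Igfbp7 at 11.5 and 1.67 against 0.313 and 0.106, both highest in the library labelled cortex input replicate 1. Igfbp5 was lower at -2.33 (SE 0.62), and at -3.05 (SE 0.38) without that library.

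Of 70 other imprinted genes, 56 were tested. In the retina Ythdf1 IP, 5 were higher and 5 lower than in the input, with a median of 0, where 3.57% of all genes were higher and 5.23% lower. The fit of 11 libraries, with 58 tested, had 11 higher and 8 lower (13.7% and 13.4% of all genes). Among the higher were Igf2r, Zfat, a zinc finger gene, at 2.38 (SE 0.60) and Osbpl5, of the oxysterol-binding family, at 1.72 (SE 0.47). Commd1, a regulator of copper and endosomal traffic, was lower at -2.73 (SE 0.55), Sgce (epsilon-sarcoglycan) at -2.24 (SE 0.47) and Gnas, the stimulatory G protein subunit, at -2.28 (SE 0.53). Meg3, the maternal noncoding RNA of the Dlk1 locus, was lower at -1.95 (SE 0.51). In the retina Ythdf2 IP 2 were lower, Sgce at -2.48 (SE 0.48) and Gnas at -2.47 (SE 0.53), and 0 were higher (1.76% and 0.282% of all genes), against 6 lower and 6 higher in the fit of 11 (7.64% and 5.82%). In the cortex IPs against input, between the antibodies in either tissue and in the differences between tissues, 0 of 56 passed over all 12 libraries. The shares of all genes for the calls that follow are given above with the members, and a departure of the list from them was not tested. The fit of 11 had 1 higher and 4 lower for the cortex Ythdf2 IP, among them Cdkn1c, an inhibitor of the cell cycle, at -1.94 (SE 0.40), and 1 higher and 4 lower between the retina antibodies. It had 2 higher and 1 lower for the Ythdf1 enrichment between tissues, 1 higher for the antibody difference between tissues, and 0 in the other 3 of these comparisons. Between the inputs 1 was higher and 4 lower in the retina over all 12 libraries, where 3.51% of all genes were higher and 4.01% lower. Gnas overlaps Nespas on the other strand, and Igf2r overlaps Airn, so that part of their reads is uncertain in origin.

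Genes with the pattern most like each member were sought over the 12 libraries, as Pearson's r of log2(normalised CPM + 1) among protein-coding genes and H19 with a mean of at least 5 CPM. The libraries share tissue, antibody and depth, so r describes these libraries only. Ywhaz, Srp72 and Hnrnpc were closest to Igf2 (r 0.90, 0.89 and 0.89), and Snrpb, Ldlrad3 and Pja1 to Nnat (0.86, 0.85 and 0.78). Ak6, Cks2 and Dut were closest to H19 (0.97, 0.95 and 0.94). Incenp, Igf2bp2 and Bub1b were closest to Grb10 (0.98, 0.98 and 0.97), and Pitrm1, Rrm1 and Fstl1 to Mest (0.95, 0.94 and 0.93). These neighbours depend on the library labelled cortex input replicate 1. Over the other 11 libraries, Psma2, Spcs2 and Rps3a1 took the place of all 3 for H19, and Col1a1, Aldoc and Flt1 of all 3 for Grb10. Ywhaz remained for Igf2, Pitrm1 for Mest, and Snrpb and Ldlrad3 for Nnat.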

How the data were processed

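RIP-seq reads of 12 libraries (6 groups of 2) were aligned by the authors with STAR 2.5 to GRCm38 and counted with HTSeq, per the submitters' processing notes. Strand setting and annotation release: not given in the sources used here. The authors deposited raw counts per gene and FPKM values, which are scaled per gene length. Names came from GENCODE M21, which matched 52403 of 52550 genes. Counts were tested with edgeR 4.0.16 (R 4.3.3): TMM scaling, filterByExpr (minimum count 10, total 15), 1 mean per group over all 12 libraries, robust quasi-likelihood test with 6 residual degrees of freedom, and Benjamini-Hochberg adjustment over 18458 genes. The fit of 11 libraries, without the 1st cortex input, had 5 residual degrees of freedom and 20278 genes. DESeq2 1.42.0 and limma 3.58.1 on log2(FPKM + 1) were alternatives. The precision is limited by 2 libraries a group, and 3 counts correspond to 0.0283 to 0.356 CPM. A direction is given only to a value larger than its SE in the count of alternatives. Named genes were the 8 members and, of each list, at most 4 higher and 4 lower with the smallest p. Members and lists were chosen with earlier results of these data known. For 1 listed imprinted gene no entry matched.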

Additional observations from a re-analysis of the deposited data

Results flagged for a closer look

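For 4 members the effect differed between tissues by a test of the difference itself, in the 11 libraries left without the library labelled cortex input replicate 1 (edgeR quasi-likelihood test, adjusted over 20278 genes). None of these passed over all 12 libraries, where 0.00542% of all genes passed for the Ythdf1 enrichment and 0% for the antibody difference. The shares of all genes in the fit of 11 are given with these comparisons above. In that fit the Ythdf1 enrichment of the cortex rests on 1 input library. The Ythdf1 enrichment of the retina minus that of the cortex was -4.93 for Nnat (SE 0.69, adjusted p 0.00169, range over the alternatives 0.00169 to 1) and -3.62 for Igf2 (SE 0.60, adjusted p 0.00441, range 6.15e-06 to 1). The difference between the antibodies in the retina minus that in the cortex, added after the data were seen, was -6.003 for Igf2 (SE 0.54, adjusted p 6.16e-05, range 1.27e-05 to 1) and -4.11 for H19 (SE 0.68, adjusted p 0.00772, range 0.00642 to 1). It was -3.37 for Nnat (SE 0.56, adjusted p 0.00772, range 0.00696 to 1) and -2.01 for Mest (SE 0.48, adjusted p 0.039, range 0.0381 to 1). In normalised CPM, both replicates of each group lay on the same side for the 4 members: the cortex Ythdf1 IPs stood above the cortex Ythdf2 IPs, and the retina Ythdf1 IPs below the retina Ythdf2 IPs. The 4 members were picked by the test on these same libraries, so this order is not separate support for it. How many of all genes show the same order was not counted. In the deposited FPKM the retina order was the same, but the cortex IPs overlapped for H19 (2.37 and 6.07 for Ythdf1, 3.08 and 4.57 for Ythdf2) and for Mest (14.5 and 14.3, 10.2 and 20.8).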

How the results depend on the processing

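Of the single-member values under the alternatives, 76 passed newly, 37 no longer passed and 21 reversed. The other 1465 kept their side of the threshold and, where the main value was larger than its SE, their direction. The number of members called moved as follows. In the retina Ythdf1 IP over input (1 called) it was 0 with library totals, 0 with a replicate block, 0 in each limma fit on FPKM, 2 without a count filter, 2 with DESeq2 and 3 in the retina libraries alone. Between the inputs (2 called) it was 1 with library totals, 1 with a replicate block, 0 in each limma fit and 4 without a filter. Where 0 were called, fitting the retina alone gave 1 for the Ythdf2 IP over input and 2 between the retina antibodies. Leaving out the count filter gave 1 for the cortex Ythdf1 IP over input, 1 for the cortex Ythdf2 IP, 1 between the retina antibodies, 2 between the cortex antibodies, 3 for the Ythdf1 enrichment between tissues and 2 for the added comparison. DESeq2 gave 1, 1, 0, 2, 2 and 2 in that order.

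Leaving out 1 library at a time gave 0 to 3 (retina Ythdf1 IP over input), 0 to 1 (retina Ythdf2 IP), 0 to 6 (cortex Ythdf1 IP), 0 to 5 (cortex Ythdf2 IP), 0 to 2 between antibodies in either tissue, 0 to 6 and 0 to 4 for the Ythdf1 and Ythdf2 enrichment between tissues, 0 to 6 between inputs and 0 to 4 for the added comparison. Leaving out either cortex input leaves 1 library there, assumed to vary like the other groups. The share of all genes that passed is not set beside the counts in this paragraph and the one before. They show how the calls moved and not whether the members differ from other genes.

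Some log2 values changed sign between the fits without cortex input replicate 1 and without cortex input replicate 2, given here in that order. Members whose value over all 12 libraries lay within 1 SE of 0 are not listed, unless the changed value passed. Thus H19 and Grb10 in the cortex Ythdf1 IP over input are not listed. With 1 library left out, they ran from -1.16 to 4.23 and from -0.06 to 4.67. In the cortex Ythdf1 IP over input the listed members were Dlk1 (-1.66 and 0.16) and Mest (-1.05 and 3.99). In the cortex Ythdf2 IP they were H19 (-2.33 and 2.76), Mest (-2.30 and 2.82) and Plagl1 (-0.000819 and 3.15). For the Ythdf2 enrichment between tissues they were Igf2 (2.38 and -0.98), H19 (1.44 and -3.76) and Mest (2.24 and -2.99), and between inputs Igf2 (-2.34 and 1.00), Grb10 (-1.23 and 3.64) and Mest (-2.71 and 2.49). On log2(FPKM + 1), Mest became 0.65 in the cortex Ythdf2 IP over input and -0.024 between the cortex antibodies, with and without a filter. With a pseudocount of 0.1 these were 1.57 and -0.020, H19 in the cortex Ythdf2 IP became 1.12 and Igf2 in the Ythdf2 enrichment between tissues -0.51. With library totals, Mest between the cortex antibodies became -0.13 and Grb10 in the Ythdf1 enrichment 0.017. The cause was not tested.

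Whether libraries that share a replicate number are paired is not known. Deviations of same-numbered libraries correlated at 0.0188, 0.099 and -0.0821 in the cortex and at 0.128, -0.0334 and 0.00705 in the retina over 18458 genes. The cortex values 0.0188 and 0.099 use the library labelled cortex input replicate 1, which goes against its label, so they cannot decide this. With a replicate block, 0 members passed in each comparison other than that of the inputs, and Igf2 in the retina Ythdf1 IP had an adjusted p of 0.0657 (range over all alternatives 3.11e-05 to 1). Dlk1, at or near 3 counts in the retina IPs, was left out of these counts there.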

Other observations

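At the Dlk1 locus, the noncoding RNAs Meg3 and Rian were measured more deeply in the retina than Dlk1 itself. Meg3 stood at 35.8 and 77.9 normalised CPM in the retina inputs, 48.0 and 48.2 in the Ythdf2 IPs and 15.3 and 14.2 in the Ythdf1 IPs. Rian stood at 27.6 and 27.1, 43.2 and 47.6, and 15.9 and 16.02 in the same order, so that in both genes the Ythdf1 IPs lay below every other retina library. The antibodies differed by a log2 of -1.71 for Meg3 over all 12 libraries (SE 0.50, adjusted p 0.232, edgeR). Without the library labelled cortex input replicate 1, Meg3 passed at -1.70 (SE 0.39) and Rian at -1.50 (SE 0.30). Dio3, the deiodinase gene of the same locus, went the other way at 2.43 (SE 0.79) and, without that library, passed at 2.44 (SE 0.52).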
